A study of Mus musculus with 6 samples.

Results

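The genes that carry dietary fat and cholesterol from the gut lumen into chylomicrons were examined in mouse duodenum, as a set of 36 genes chosen by name among 23699 gene models. They were ordered by step into fatty acid uptake and activation (7 genes), re-esterification (5), lipid droplets and lipolysis (7), chylomicron assembly (11) and sterol uptake and efflux (6). RNA of whole duodenum from 6-week-old mice of mixed background had been sequenced in 3 control libraries of genotype Nkx2.2flox/+ and 3 mutant libraries of genotype Nkx2.2flox/flox with Villin-Cre/+. The third mutant also carried Rosa26Tomato/+, a reporter allele. Every library thus holds at least 1 floxed Nkx2.2 allele, and the labels name no Cre in the controls. Villin-Cre drives recombination in the intestinal epithelium, while whole duodenum also holds muscle, stroma, immune cells and vessels. Whether each library is a separate animal is not stated, so all p-values measure the spread between these libraries.

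In the small intestine, fatty acids and monoacylglycerol released by pancreatic lipase enter absorptive cells, the enterocytes, where they are bound, activated to acyl-CoA and rebuilt into triacylglycerol at the endoplasmic reticulum. The triacylglycerol is either stored for a time in cytosolic droplets or loaded by microsomal triglyceride transfer protein onto apolipoprotein B, and the particle leaves for the lymph as a chylomicron with apolipoproteins A-I and A-IV on its surface. Cholesterol enters through NPC1L1, is esterified and joins the same particle, while plant sterols and excess cholesterol are pumped back into the lumen. Nkx2-2, the deleted gene, encodes a homeodomain transcription factor known for its part in forming endocrine cells, and the comparison here asked whether transcripts of the absorptive fat pathway differed when it was deleted.

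Levels are given in FPKM, fragments scaled to transcript length and to library depth, so that genes of different length can be set side by side. Values of the 3 libraries of a group are listed in the order of their numbers, 1 to 3. The depth rebuilt from the deposited confidence intervals was 21.0 to 26.3 M fragments, and single members rested on 224 fragments (Abca1) to 359702 fragments (Apoa4) in a library. Means are given ± SD with n = 3 in each group. Log2 changes are mutant minus control on log2(FPKM + 0.5), given ± SE, the standard error from limma, and a gene is called at a limma adjusted p under 0.05 over all 13596 genes tested. The gene total of Nkx2-2 was at 1.13, 1.32 and 0.779 FPKM across the controls against 1.10, 0.736 and 0.221 FPKM across the mutants, so the library labelled mutant 1 lay within the range of the controls. Its isoform of 2049 bases lay between 0.464 and 1.07 FPKM in controls and at no more than 0.130 FPKM in any mutant, so this isoform separated the groups as labelled. The isoform of 1354 bases was at 0.184, 0.250 and 0.315 FPKM across the controls against 1.02, 0.736 and 0.0912 FPKM across the mutants. It was thus higher in mutants 1 and 2 than in any control. These levels are low, and how fragments were shared between the 2 isoforms was not tested.

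Both libraries numbered 3 stood apart from the other 4, in the control as in the mutant group, and this touched many of the genes described here. Reg3b, an antimicrobial lectin of the epithelium, was at 1466, 5823 and 42934 FPKM across the controls against 651, 207 and 47743 FPKM across the mutants. The 14 enterocyte markers summed to 9476, 8375 and 7197 FPKM across the controls against 10098, 10458 and 7065 FPKM across the mutants, and 11 of the 14 were lowest in library 3 of both groups. Lct, the brush-border lactase of the villus, was at 173, 139 and 21.3 FPKM across the controls against 149, 166 and 33.6 FPKM across the mutants. The 5 smooth muscle markers summed to 511, 432 and 881 FPKM across the controls against 480.0, 531 and 694 FPKM across the mutants, and both libraries numbered 3 were the highest of their group. The 7 general epithelial markers summed to 3707 to 4095 FPKM over the 6 libraries, and this sum was lowest in library 3 of both groups. Of these markers, only Krt8 was itself lowest in library 3 of both groups. The 6 hepatocyte markers summed to no more than 1.13 FPKM in any library, with Fga and Fgb at 0 in all. Fabp6 and Slc10a2, which mark the ileum, summed to no more than 2.14 FPKM. The 7 adipocyte markers summed to 81.6 to 153 FPKM, nearly all of it Cidec, with Adipoq, Plin1 and Lep under 1 FPKM in every library. The 15 markers of exocrine pancreas summed to 19639, 18642 and 12319 FPKM across the controls against 12368, 8218 and 2848 FPKM across the mutants, and 13 of them had a lower mean FPKM in mutants. The 8 markers of Brunner gland and stomach summed to 2708, 8511 and 3113 FPKM across the controls against 4807, 1096 and 142 FPKM across the mutants, and all 8 had a lower mean FPKM in mutants. Gkn2, a gene of the stomach lining, lay at 207 FPKM in control 2 and at no more than 1.28 FPKM elsewhere, so control 2 stood apart in stomach transcripts; without control 2, too, none of the 36 genes was called. Xist, the RNA of the inactive X chromosome, lay at 19.7 and 22.5 FPKM in mutants 2 and 3 and at no more than 0.0894 FPKM in the other libraries, while the labels give no sex. The part that any of these differences has in the values below was not tested, and in bulk tissue fewer cells of a type and less RNA per cell cannot be told apart.

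**Figure D1:**
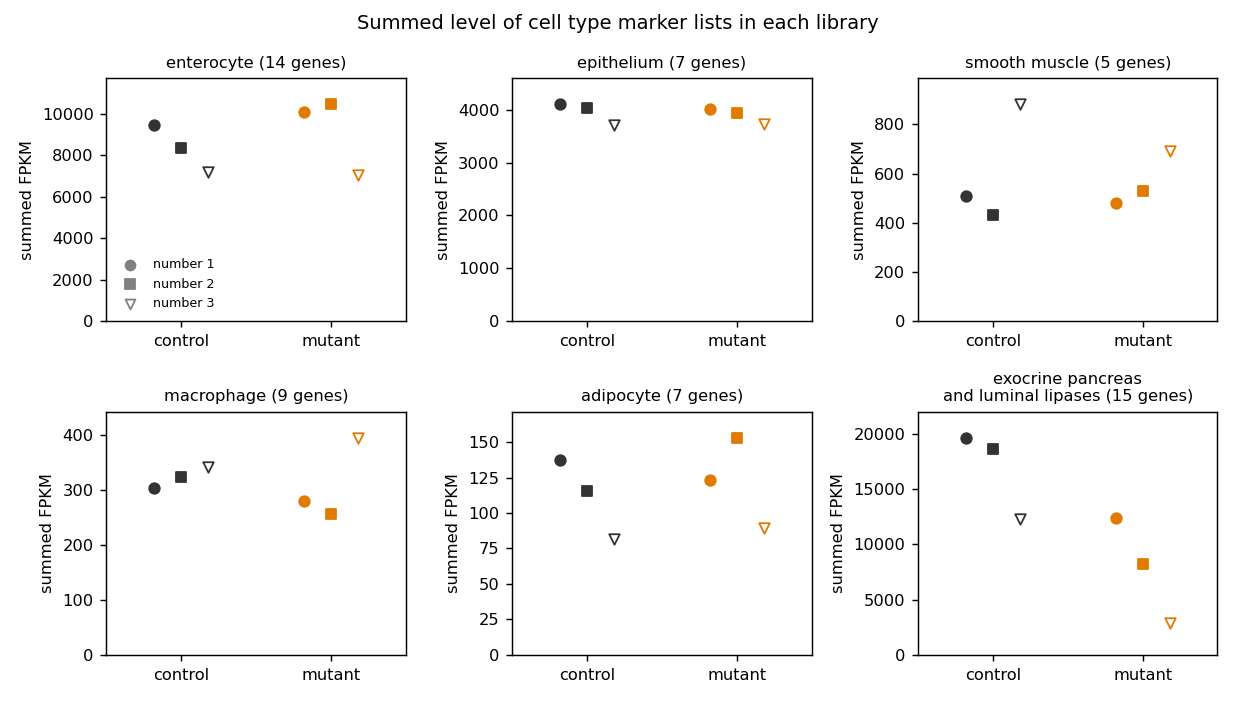
Summed FPKM of 6 marker lists in each library, with controls in black and mutants in orange and the library number given by the symbol (1 circle, 2 square, 3 open triangle). The enterocyte sum was lowest, and the smooth muscle and macrophage sums highest, in library 3 of each group. The epithelial sum lay between 3707 and 4095 FPKM and was also lowest in library 3 of each group.

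None of the 36 genes was called between mutant and control duodenum, where 3 of all 13596 genes (0.0221%) were. The adjusted p was 0.999 for each of the 36, none had an unadjusted limma p under 0.05 (3.43% of all genes did), and none had groups without overlap (7.75% of all genes did). Log2 changes ran from -0.37 for Slc27a4 to 0.65 for Apoc3, with a median of 0.08 against -0.02 over all genes. The mean log2 level was higher in mutants for 25 genes and lower for 11, where it was higher for 44.2% of all genes (6016 against 7580 lower). Of the 14 enterocyte markers 12 were higher and 2 lower, with a median log2 change of 0.11 and none called. The lean is thus not particular to the 36 genes. For 29 of the 36 genes the 95% interval of the change lay within 2-fold in both directions, a smaller share than the 91.1% of all genes. The intervals of the other 7 (Fabp1, Fabp2, Slc27a2, Dgat2, Apoa1, Apoa4 and Apoc3) reached beyond 2-fold, so a change of that size could not be told from none in them. The smallest p of an exact two-sided permutation test was 0.2, where 3 libraries against 3 cannot go below 0.1.

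**Figure D2:**
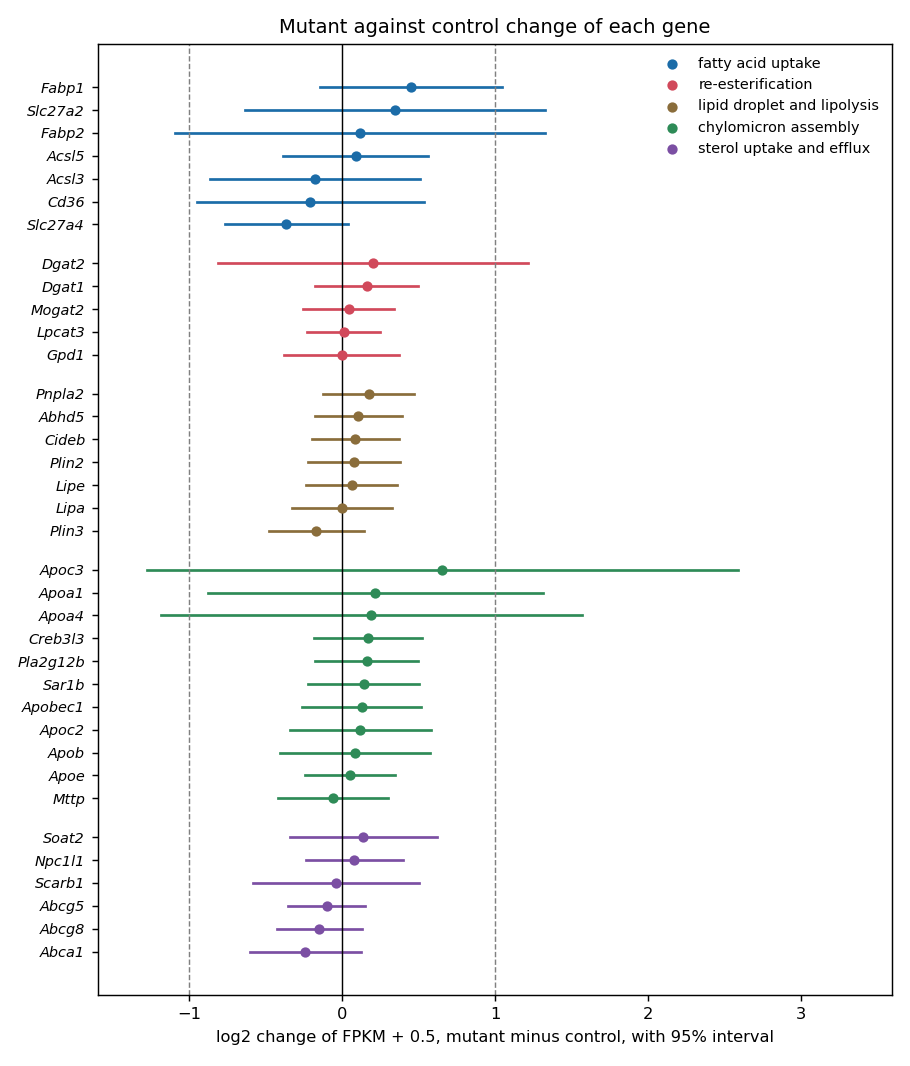
Log2 change of each of the 36 genes, mutant minus control, as points with bars for the 95% limma interval, coloured by step; dashed lines mark 2-fold. All intervals include 0, and those of Apoc3, Apoa4, Fabp2 and Apoa1 are the widest.

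The spread within each group had a common pattern, which was noticed after the values were seen and is given as a description. Both libraries numbered 3 lay below the other 4 libraries in 14 of the 36 genes, against 11.4% of all genes. These were Cd36, Slc27a2, Fabp2, Acsl3 and Acsl5 of uptake, Dgat2, the droplet coat gene Plin3, Apob, Apoa1, Apoa4, Apoc3 and Pla2g12b of chylomicron assembly, and Npc1l1 and Scarb1 of sterol uptake. In 6 of them (Slc27a2, Fabp2, Dgat2, Apoa1, Apoa4 and Apoc3) library 3 was lower than the mean of its 2 group mates by at least 0.8 on the log2 scale in both groups, against 1.5% of all genes. The members together held 4.23, 4.10 and 2.27% of all fragments in controls and 3.91, 4.89 and 2.64% in mutants. Apoa4 alone held 1.30, 1.31 and 0.390% in controls and 1.14, 1.51 and 0.571% in mutants, so few genes weigh heavily in this share. Over the 36 genes, the median difference of library 3 from its group mates was -0.22 log2 in controls and -0.19 in mutants. Over all genes it was 0.03 and 0.13. By contrast, Mogat2, Plin2, Pnpla2 and Soat2 were highest of their group in library 3 in both groups. The share of all genes with that pattern was not counted.

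**Figure D3:**
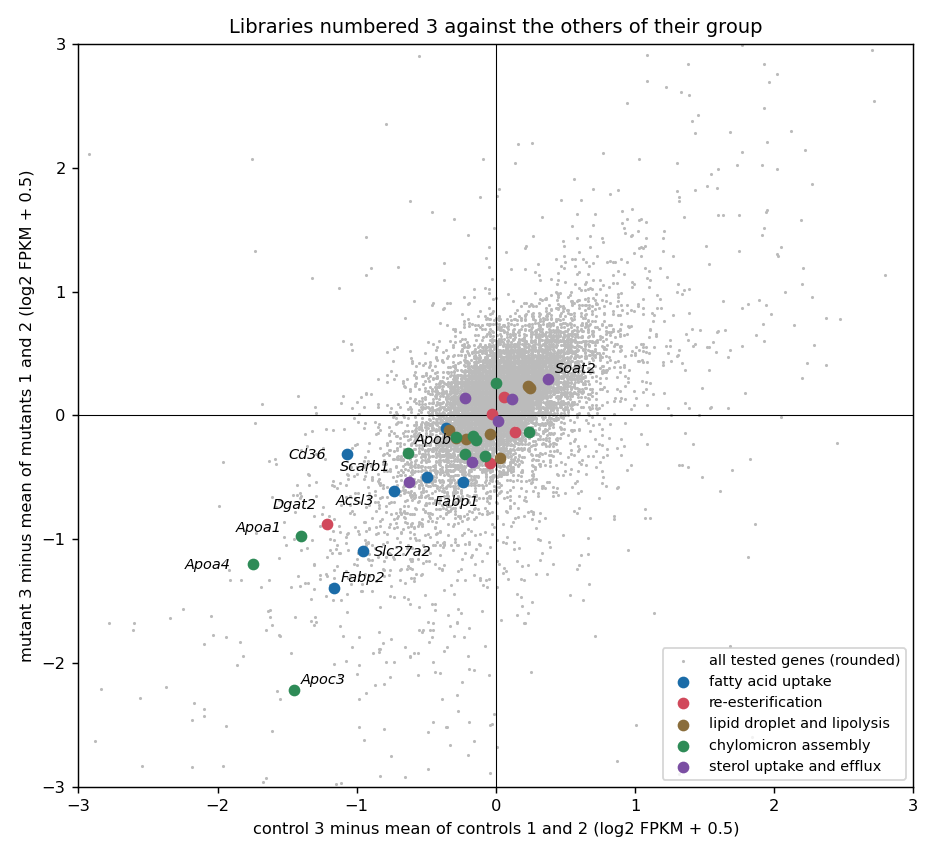
Difference of library 3 from the mean of libraries 1 and 2 on log2(FPKM + 0.5), with controls on the horizontal and mutants on the vertical axis; coloured points are the 36 genes by step and grey points all tested genes, of which 61 lie outside the plotted range. Apoa4, Apoc3, Apoa1, Fabp2, Dgat2 and Slc27a2 lie at the lower left, and most other members lie near the origin.

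Transcripts of Apoa1, Apoa4 and Fabp2 moved together across libraries, and Fabp1 moved less in the same libraries. Abcg5 and Abcg8 varied little, in level and in ratio. For these reasons the stretches before the transcription start of these genes are shown. They are the 250 bases before the RefSeq start (GRCm38.p6), 5′ to 3′ on the gene's strand, and were chosen after the values were seen. Capitals mark exact matches to 6 short motifs: CAAAGTCC and CAAAGGTC (letters of HNF4 and nuclear receptor sites), AGATAA (zinc finger factors such as Gata4), GTTAAT (HNF1) and TTTATNG (CDX), each on either strand, and TATAAA on the gene's strand alone. The first lies at chr9:46228380-46228629, the second at chr9:46240594-46240843, the third at chr3:122894822-122895071 and the fourth at chr6:71199629-71199878, all on the plus strand.
Apoa1: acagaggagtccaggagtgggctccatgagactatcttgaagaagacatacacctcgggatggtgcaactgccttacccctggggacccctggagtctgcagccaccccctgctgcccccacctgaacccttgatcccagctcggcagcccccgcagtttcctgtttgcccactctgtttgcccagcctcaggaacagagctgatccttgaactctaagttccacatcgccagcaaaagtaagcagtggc
Apoa4: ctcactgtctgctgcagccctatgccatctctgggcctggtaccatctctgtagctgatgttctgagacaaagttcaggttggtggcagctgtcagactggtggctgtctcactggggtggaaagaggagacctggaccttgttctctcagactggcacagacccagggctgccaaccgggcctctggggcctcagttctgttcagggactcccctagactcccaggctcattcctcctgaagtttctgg
Fabp2: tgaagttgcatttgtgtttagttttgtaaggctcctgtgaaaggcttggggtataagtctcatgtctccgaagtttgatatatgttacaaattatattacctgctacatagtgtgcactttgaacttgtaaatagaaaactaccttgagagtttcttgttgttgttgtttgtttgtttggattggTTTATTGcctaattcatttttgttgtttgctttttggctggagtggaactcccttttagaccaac
Fabp1: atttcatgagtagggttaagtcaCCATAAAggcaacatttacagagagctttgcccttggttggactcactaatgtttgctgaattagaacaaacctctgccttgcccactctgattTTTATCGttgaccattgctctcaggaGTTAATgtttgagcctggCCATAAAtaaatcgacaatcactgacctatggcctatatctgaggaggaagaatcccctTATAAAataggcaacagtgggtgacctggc
The stretch between the divergent starts of Abcg5 and Abcg8 holds 109 bases at chr17:84683012-84683120 and is read on the strand of Abcg8.
Abcg5 to Abcg8 spacer: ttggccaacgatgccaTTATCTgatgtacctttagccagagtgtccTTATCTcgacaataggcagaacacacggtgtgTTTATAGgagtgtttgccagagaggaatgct
None of the 6 motifs was in the Apoa1 or Apoa4 window. Fabp2 held 1 TTTATNG match. Fabp1 held 3, of which 2 are on the other strand and read CCATAAA, together with GTTAAT and TATAAA. The spacer held 2 AGATAA matches on the other strand, read as TTATCT, and 1 TTTATNG match. Windows were found for 29 of the 36 genes, all but Mogat2, Dgat1, Dgat2, Gpd1, Apoc3, Scarb1 and Soat2. TTTATNG was in 9 of these 29 (31.0%) and in 9.81% of all 32851 windows, TATAAA in 6 (20.7%) against 7.59%, and GTTAAT in 4 (13.8%) against 6.43%. AGATAA was in 3 (10.3%) against 9.99%, and CAAAGTCC and CAAAGGTC in 1 each (3.45%) against 1.20% and 1.01%. A member counted if any of its windows held the motif, while the shares of all windows count each window singly. Members with more than 1 window, such as Apoe, thus had more chances of a match, and the shares compared are of unlike units. In 4 of the 9 windows (Abca1, Abcg5, Apob and Cideb) the TTTATNG match covers the TATAAA match, so these 2 counts are not independent. The Abcg5 and Abcg8 windows share the 109 bases of the spacer, so 1 TTTATNG site and the same 2 AGATAA sites count for both genes. A match is only a run of letters and says nothing of whether a factor binds there.

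Fatty acid uptake genes ranged from 7.26 FPKM (Acsl3) to 9426 FPKM (Fabp2) in single libraries, and 4 of the 7 had a higher and 3 a lower mean in mutants. Fabp1 (chromosome 6, 71149882 to 71155017, mm9), the liver-type fatty acid binding protein of the cytosol, was at 5477, 5999 and 4075 FPKM across the controls against 7181, 8569.8 and 5552 FPKM across the mutants. Each mutant lay above the control of the same number, but the lowest mutant lay below the highest control. The means were 5184 ± 995 FPKM for controls against 7101 ± 1511 FPKM for mutants (log2 change 0.45 ± 0.25, limma unadjusted p = 0.117). Fabp2 (chromosome 3, 122598310 to 122602424), the intestinal form, was at 7364, 6103 and 2992 FPKM across the controls against 6232, 9426 and 2923 FPKM across the mutants. Both libraries numbered 3 held under 0.5 of the level of any other library, and the log2 change was 0.12 ± 0.51. The ratio of Fabp1 to Fabp2 was 1.36 in control 3 and 1.90 in mutant 3, above the other 4 libraries, where it lay between 0.744 and 1.15.

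The membrane and acyl-CoA genes of the same step had lower means in mutants for Slc27a4, Cd36 and Acsl3 and higher means for Slc27a2 and Acsl5. Slc27a4 (chromosome 2, 29658200 to 29673042), which encodes FATP4, an acyl-CoA synthetase that promotes fatty acid uptake, was at 265, 196 and 177 FPKM across the controls against 154, 179.7 and 155 FPKM across the mutants. It was lower in mutants in each same-numbered pair, but mutant 2 lay above control 3 (log2 change -0.37 ± 0.17, limma unadjusted p = 0.0691). Slc27a2, which encodes FATP2, an activator of very long-chain fatty acids, was at 97.1, 94.3 and 49.1 FPKM across the controls against 119, 133 and 58.7 FPKM across the mutants, higher in each pair. Cd36, the scavenger receptor that binds long-chain fatty acids, was at 26.9, 31.5 and 13.6 FPKM across the controls against 20.9, 21.0 and 16.8 FPKM across the mutants. Controls 1 and 2 were above all mutants and control 3 below all of them. Of the long-chain acyl-CoA synthetases, Acsl5 lay at 536 to 871 FPKM and Acsl3 at 7.26 to 15.6 FPKM over the 6 libraries, and both were lowest in the libraries numbered 3.

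**Figure D4:**
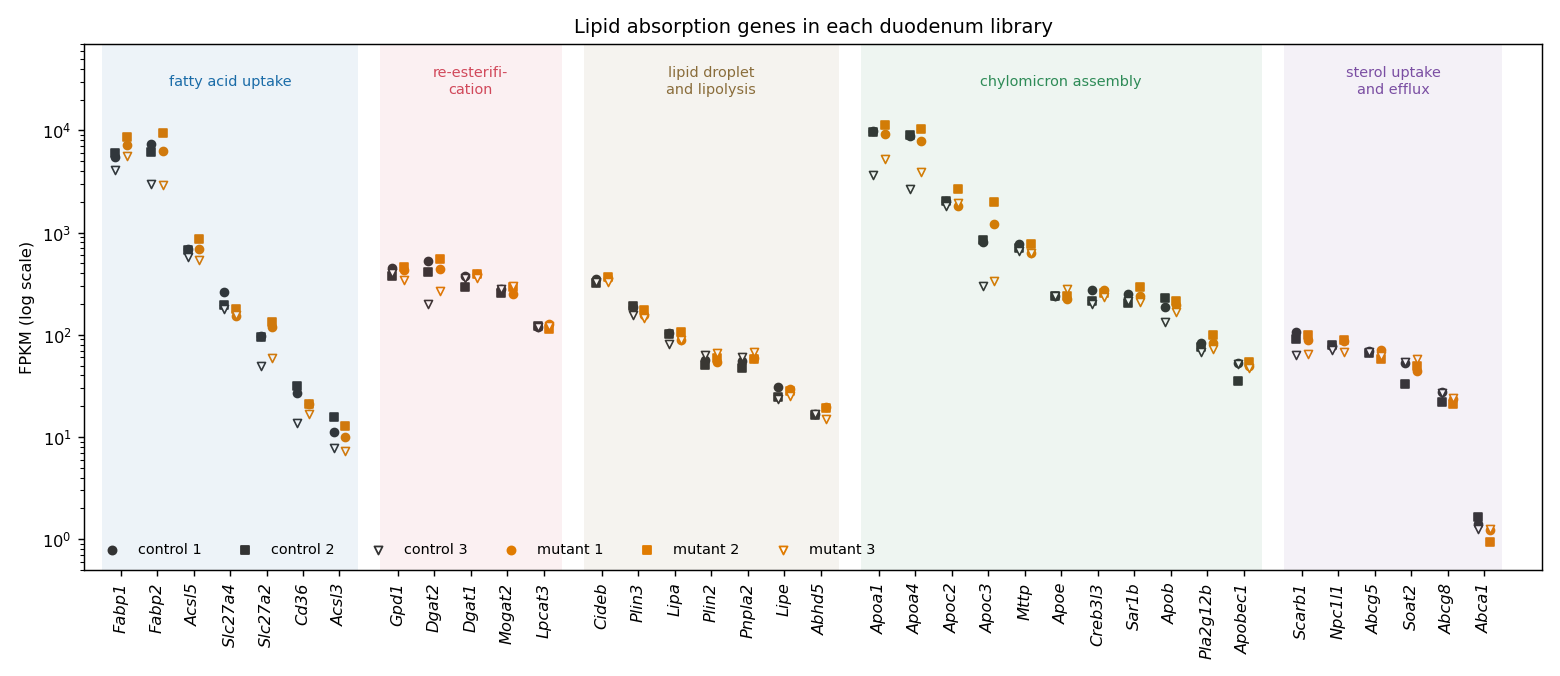
FPKM of the 36 genes in each library on a log scale, ordered by step and by mean level, with controls in black, mutants in orange and the library number given by the symbol. Open triangles, the libraries numbered 3, sit below the other symbols for Fabp2, Slc27a2, Dgat2, Apoa1, Apoa4 and Apoc3. They sit among the other symbols for Dgat1, Lpcat3, Cideb and Abcg5 and are the highest of their group for Mogat2.

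The 5 re-esterification genes had log2 changes from -0.00451 (Gpd1) to 0.20 (Dgat2), and Dgat2 alone varied widely between libraries. Mogat2 (chromosome 7, 106367594 to 106387121), the monoacylglycerol acyltransferase of the main intestinal route to triacylglycerol, was at 278, 258 and 279 FPKM across the controls against 248, 293 and 299.6 FPKM across the mutants. The 6 values differed by no more than 1.21-fold, and the log2 change was 0.04 ± 0.13, with a 95% interval from -0.26 to 0.34. Dgat1, which catalyses the last step from diacylglycerol to triacylglycerol, was at 372, 291 and 363 FPKM across the controls against 389, 395 and 356 FPKM across the mutants (log2 change 0.16 ± 0.14). Gpd1, which makes the glycerol 3-phosphate used by the other route, had the highest mean of the step and was at 453, 376 and 402 FPKM across the controls against 428, 465 and 341 FPKM across the mutants. Its means were 411 ± 39.0 FPKM for controls against 411 ± 63.3 FPKM for mutants. Lpcat3, which places polyunsaturated fatty acids into membrane phospholipid, lay between 113 and 127 FPKM in all 6 libraries, the narrowest range among the 36 genes. Its gene model overlaps that of Emg1, which reached 74.2 FPKM, and whether strand was used in counting is not given in the sources used here.

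Dgat2, the second acyltransferase of the last step, was at 524, 412 and 200.2 FPKM across the controls against 438, 557 and 269 FPKM across the mutants. Its gene (chromosome 7, 106302173 to 106331223) lies 36370 bases from Mogat2 on the same strand, yet only Dgat2 was lower in the libraries numbered 3. The ratio of Dgat2 to Mogat2 was 1.89, 1.60 and 0.718 in controls and 1.76, 1.90 and 0.899 in mutants, below 1 in both libraries numbered 3 and above 1.5 in the other 4. The ratio of Dgat2 to Dgat1 showed the same split, with 0.552 and 0.756 in control 3 and mutant 3 against 1.13 to 1.41 elsewhere.

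The genes of lipid droplets and lipolysis varied least between libraries, the highest value of a gene being no more than 1.42-fold the lowest. Cideb (chromosome 14, 56372892 to 56377261), a droplet protein that also helps to lipidate apolipoprotein B particles, was at 351, 322 and 327 FPKM across the controls against 362, 368 and 329 FPKM across the mutants. Its means were 333 ± 15.4 FPKM for controls against 353 ± 21.3 FPKM for mutants, and it overlaps a gene model, 2610027L16Rik, of at most 12.2 FPKM. Plin3, a coat protein of small droplets, was at 188, 191 and 156 FPKM across the controls against 157, 173 and 145 FPKM across the mutants and lower in mutants in each pair (log2 change -0.17 ± 0.13, limma unadjusted p = 0.245). Pnpla2, the adipose triglyceride lipase that opens droplet triacylglycerol to hydrolysis, was at 55.0, 47.6 and 60.8 FPKM across the controls against 58.8, 57.6 and 67.8 FPKM across the mutants and higher in mutants in each pair (log2 change 0.17 ± 0.13, unadjusted p = 0.211). Abhd5, the protein that activates this lipase, was at 16.6, 16.2 and 16.8 FPKM across the controls against 19.6, 19.1 and 15.1 FPKM across the mutants. Mutants 1 and 2 lay above all controls and mutant 3 below all of them. The droplet coat gene Plin2 lay at 50.4 to 66.5 FPKM, the lysosomal acid lipase gene Lipa at 81.0 to 106 FPKM and Lipe, the hormone-sensitive lipase gene, at 23.7 to 30.8 FPKM, each with overlapping groups.

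Chylomicron assembly held the highest levels of the set and its widest spread, and 10 of its 11 genes had a higher mean in mutants. On the log2 scale 44.2% of all genes and 12 of the 14 enterocyte markers did. Mttp (chromosome 3, 137752819 to 137806352), the lipid transfer protein that loads apolipoprotein B, was at 765, 701 and 654 FPKM across the controls against 634, 780.5 and 627 FPKM across the mutants. It was the exception with a lower mean in mutants, 707 ± 55.7 FPKM for controls against 680.4 ± 86.7 FPKM for mutants (log2 change -0.06 ± 0.15, 95% interval from -0.42 to 0.30). Apob itself, the structural protein of the particle, was at 189, 230.1 and 134 FPKM across the controls against 196, 213 and 166 FPKM across the mutants, with both libraries numbered 3 lowest. The ratio of Mttp to Apob lay between 3.04 (control 2) and 4.87 (control 3). Apobec1, the deaminase that edits Apob RNA to give the short intestinal form, lay between 35.3 FPKM in control 2 and 54.1 FPKM in mutant 2.

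The 3 apolipoproteins of the chromosome 9 cluster were all lowest in control 3, next lowest in mutant 3 and highest in mutant 2. Apoa1 (46036713 to 46038549, plus strand), Apoc3 (46041134 to 46043380, minus strand) and Apoa4 (46048927 to 46051541, plus strand) are separated by 2584 and 5546 bases in mm9. Apoa1, the main protein of high-density lipoprotein and a surface protein of new chylomicrons, was at 9779.9, 9585 and 3663 FPKM across the controls against 9124, 11372 and 5191 FPKM across the mutants and had the highest mean of the 36 genes. Apoa4, made by the intestine during fat absorption, was at 8903, 9033 and 2676 FPKM across the controls against 7837, 10372 and 3924 FPKM across the mutants. It was the 6th, 6th and 22nd most abundant transcript in controls and the 6th, 4th and 13th in mutants, lowest in both libraries numbered 3. The ratio of Apoa4 to Apoa1 stayed between 0.731 and 0.942, lowest in both libraries numbered 3, while each gene varied over 3.10-fold (Apoa1) and 3.88-fold (Apoa4). Log2 changes between the groups were 0.22 ± 0.47 for Apoa1 and 0.19 ± 0.58 for Apoa4, smaller than their SE.

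Apoc3, which inhibits lipoprotein lipase, varied most of the 36 genes and was at 806, 844 and 301 FPKM across the controls against 1216, 1977 and 333 FPKM across the mutants. Mutants 1 and 2 lay above all controls and mutant 3 below controls 1 and 2. Its ratio to Apoa1 was 0.133 and 0.174 in mutants 1 and 2, but only 0.0641 in mutant 3, against 0.0823 to 0.0881 in controls. The log2 change was 0.65 ± 0.78, with a 95% interval from -1.28 to 2.59. Apoa5, the next gene of the cluster, was at no more than 0.152 FPKM in any library.

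A second apolipoprotein cluster, on chromosome 7, did not share that spread. Apoc2 (20256928 to 20262213), the activator of lipoprotein lipase, was at 2024, 2022 and 1835 FPKM across the controls against 1838, 2687 and 1942 FPKM across the mutants, and Apoe (20281593 to 20284515), a ligand of hepatic lipoprotein receptors, was at 239.6, 237 and 238 FPKM across the controls against 223, 241 and 279 FPKM across the mutants. Control libraries of Apoe differed by less than 4 FPKM. Apoc1 and Apoc4, which lie between them, did not exceed 1.19 and 0.376 FPKM. Among the other assembly genes, Sar1b, the GTPase of the vesicles that carry chylomicrons out of the endoplasmic reticulum, was at 248, 207 and 215 FPKM across the controls against 242, 290.2 and 210.4 FPKM across the mutants. Pla2g12b, a phospholipase-like protein needed for lipoprotein secretion in mice, was at 82.9, 75.9 and 67.8 FPKM across the controls against 82.8, 99.0 and 72.8 FPKM across the mutants. Creb3l3, a membrane-bound transcription factor that promotes apolipoprotein genes such as Apoa4 in liver and intestine, was at 272, 216 and 199 FPKM across the controls against 273, 259 and 236 FPKM across the mutants. All 3 had higher means in mutants, with log2 changes of 0.14 ± 0.16, 0.16 ± 0.14 and 0.17 ± 0.15 and overlapping groups.

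No sterol gene exceeded 107 FPKM in a library, and 4 of the 6 had a lower mean in mutants. Scarb1, the scavenger receptor that binds high-density lipoprotein, had the highest mean and was at 107, 91.8 and 63.9 FPKM across the controls against 89.2, 99.4 and 64.7 FPKM across the mutants, lowest in both libraries numbered 3. Npc1l1, the apical cholesterol importer, lay between 67.7 and 89.7 FPKM, and Soat2, which esterifies the imported cholesterol, between 33.3 and 57.8 FPKM. Abcg5 and Abcg8 (chromosome 17, 85057574 to 85082263 and 85082471 to 85099673, 207 bases apart on opposite strands) encode the subunits of the sterol export pump. Abcg5 was at 69.0, 66.7 and 68.5 FPKM across the controls against 70.5, 58.2 and 62.1 FPKM across the mutants, and Abcg8 was at 27.4, 22.2 and 26.8 FPKM across the controls against 23.3, 20.9 and 24.3 FPKM across the mutants. Their ratio stayed between 2.52 and 3.02 in all 6 libraries, but each gene alone also varied by no more than 1.21-fold (Abcg5) and 1.31-fold (Abcg8). The ratio thus does not show that both genes move together. The log2 changes of Abcg5 and Abcg8 were -0.10 ± 0.11 and -0.15 ± 0.12. Abca1, the basolateral exporter that feeds high-density lipoprotein, was the lowest gene of the set, at 1.41, 1.65 and 1.24 FPKM across the controls against 1.23, 0.936 and 1.24 FPKM across the mutants (log2 change -0.24 ± 0.16, limma unadjusted p = 0.165).

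The libraries numbered 3 deviated together, with a correlation of 0.58 between their deviations from the group mean. Numbers 1 and 2 could be paired either way, as control 1 correlated at 0.26 with mutant 1 and at 0.30 with mutant 2. The comparison was also made within same-numbered pairs, though what the numbers mean is not stated. With the replicate number as a block, limma again called none of the 36 genes (0.162% of all genes), and 4 had an unadjusted p under 0.05 (6.76% of all genes). Slc27a2 was higher in mutants by a log2 change of 0.35 (SE 0.09, unadjusted p = 0.00408, adjusted p = 0.396). Fabp1 gave an unadjusted p of 0.0115, Apoc3 0.0238 and Slc27a4 0.0309, in limma with this block, with adjusted p of 0.518, 0.634 and 0.676. The mutant was higher in 3 of 3 pairs for 6 genes (Slc27a2, Fabp1, Cideb, Pnpla2, Apoc3 and Creb3l3; 14.2% of all genes) and lower in 3 of 3 for 4 genes (Slc27a4, Acsl3, Plin3 and Abcg8; 14.1%).

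Without both libraries numbered 3, a comparison of 2 against 2 chosen after seeing the data, 200 of all genes (1.47%) and none of the 36 were called. The lowest adjusted p of a member in limma was 0.149, for Cd36, whose log2 change was -0.46 there and -0.21 with all libraries. Without these libraries the change of Apoc3 was 0.91, that of Fabp1 0.45, that of Slc27a2 0.39 and that of Slc27a4 -0.45. The changes of Apoa1 (0.07), Apoa4 (0.01), Mogat2 (0.01) and Mttp (-0.06) were near 0.

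Transcript isoforms gave no call either. Of 50 isoforms of the 36 genes, 46 were tested and 0 passed in limma (0.00617% of all 16213 isoforms did), with 0 at an unadjusted p under 0.05 (3.79% of all isoforms). The smallest p was that of the 2967-base isoform of Lipa (NM_001111100), a minor form with 10.5% of the Lipa level, at 8.04, 8.41 and 4.25 FPKM across the controls against 17.4, 14.6 and 7.35 FPKM across the mutants (log2 change 0.85 ± 0.38, limma unadjusted p = 0.0654, adjusted p = 0.999). Mutants 1 and 2 lay above all controls and mutant 3 within their range. The next were the single isoforms of Slc27a4 and Fabp1, equal to their genes, and the 3542-base isoform of Cd36 (NM_007643). This Cd36 isoform was at 1.09, 1.33 and 3.93 FPKM in controls, 2.34 FPKM in mutant 1 and under 0.1 FPKM in mutants 2 and 3 (limma unadjusted p = 0.121). A 3539-base Cd36 isoform from the same start (NM_001159555) was at 0.000545, 0.472 and 1.61 FPKM across the mutants. It was at 0.00181, 0.903 and 0.000229 FPKM across the controls. The main Lipa isoform, of 2971 bases, shares its start with the 2967-base one. How fragments were shared between isoforms so close in length was not tested. Acsl3 was the only gene with 2 isoforms of at least 20% each, of 3810 bases (72.4%) and 3950 bases (25.3%). The 3950-base share was 19.9, 25.3 and 29.8% in controls and 20.6, 18.5 and 46.9% in mutants, highest in both libraries numbered 3.

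The other genes of the pathway were read from a list of 103 genes with a row in the files, of which 89 were tested. Of these 0 were called (0.0221% of all genes were), and 6 had an unadjusted limma p under 0.05 (3.43% of all genes did), 5 with a higher and 1 with a lower mean in mutants. Their median log2 change was -0.04. Ppargc1a, a transcriptional coactivator of fatty acid oxidation, had the smallest p and was at 8.14, 7.47 and 10.7 FPKM across the controls against 12.1, 12.1 and 13.5 FPKM across the mutants (log2 change 0.51 ± 0.14, limma unadjusted p = 0.00875, adjusted p = 0.999). All mutants lay above all controls. Lpin2, a phosphatidate phosphatase of the glycerol phosphate route, was at 28.4, 23.2 and 20.7 FPKM across the controls against 34.1, 35.4 and 27.7 FPKM across the mutants, and Apoh, an apolipoprotein of mainly hepatic origin, was at 0.664, 0.329 and 0.669 FPKM across the controls against 1.06, 1.76 and 0.783 FPKM across the mutants. The most abundant were P4hb, which is also the small subunit of the microsomal triglyceride transfer complex, with means of 1224 ± 80.7 FPKM for controls against 1179 ± 79.2 FPKM for mutants, and Dbi, the acyl-CoA binding protein, with 1177 ± 222 FPKM for controls against 1145 ± 219 FPKM for mutants. Next came Tm6sf2, which is needed for lipidation of secreted lipoproteins, with 262 ± 38.5 FPKM for controls against 261 ± 19.3 FPKM for mutants. Mia3 and Vamp7 were listed at 0 in all libraries.

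Groups did not overlap in 8 of the 89 tested genes, 3 higher and 5 lower in mutants, where 7.75% of all genes did not. Among the transcription factors that act on fat absorption genes, Hnf4a, a nuclear receptor of hepatocytes and enterocytes, was at 208, 231 and 202 FPKM across the controls against 187, 171 and 196 FPKM across the mutants, so each mutant lay below each control (log2 change -0.21 ± 0.12, limma unadjusted p = 0.121). Gata4, a zinc finger factor of the proximal small intestine, was at 68.6, 71.2 and 66.5 FPKM across the controls against 61.9, 59.0 and 66.3 FPKM across the mutants (log2 change -0.14 ± 0.10, unadjusted p = 0.196 in limma). Hnf4a and Gata4 were named after their values were seen. Of the 23 transcription factors listed, 10 had a higher and 13 a lower mean log2 level in mutants, with a median log2 change of -0.03. None of the 23 was called. Gk, the glycerol kinase listed as Gyk, was at 29.8, 27.8 and 36.1 FPKM across the controls against 44.5, 44.3 and 33.8 FPKM across the mutants. It was the 1 gene of the list called without both libraries numbered 3 (limma adjusted p = 0.0249), and was not called with all 6 libraries (adjusted p = 0.999).

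The authors' deposited table of mean normalized counts gave the same absence of calls. In the authors' deposited table the adjusted p was 1 for all 36 genes, where 26 of 18605 genes (0.14%) had one under 0.05. Its lowest unadjusted p among the members was 0.101, for Fabp1 (log2 fold change 0.49 in the authors' deposited table), and its highest log2 fold change was 0.91, for Apoc3. In all, 27 genes were higher and 9 lower in mutants by the authors' deposited table.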

How the data were processed

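RNA of whole duodenum had been sequenced in 3 control and 3 mutant libraries, grouped by their titles. The submitters' processing notes list the mm9 genome and the tools CASAVA 1.8.2, TopHat, Cufflinks and DESeq; options and strand are not given in the sources used here. Per the file headers, the authors deposited FPKM for 23699 gene models and 30028 isoforms, with Cufflinks intervals. The deposited isoform coverage signal was not used. The authors' own comparison, per the file headers, lists mean normalized counts of each group (unit: signal), the ratio of these means, the log2 of that ratio, and a p-value before and after adjustment.

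Depth was rebuilt from the deposited intervals of FPKM (21.0 to 26.3 M fragments per library); 92.9% of 17690 values up to 20 fragments came within 0.1 of a whole fragment. The 13596 genes that reached 0.5 FPKM in 3 or more libraries were tested on log2(FPKM + 0.5), a scale that understates changes of low genes. The test was limma 3.58.1 (eBayes with a trended, robust prior; R 4.3.3 and statmod 1.5.0), two-sided, Benjamini-Hochberg adjusted over all genes at 0.05, and isoforms were treated alike. The script was tested on simulated data. Python 3.11.15, pandas 2.3.3, numpy 2.4.6, scipy 1.17.1 and matplotlib 3.10.9 served for summaries, exact permutation tests and plots. For none of the 36 genes did minimap2 2.31-r1302 find another mm9 copy that matched 50% of the transcript at 95% identity. All 36 passed the filter with a good Cufflinks status in every library.

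The 36 genes and the other lists were chosen with earlier results of these data known. Values in every library are given for Apoa4, Mttp and Mogat2, the highest gene of each step and the 12 genes of smallest p; for other pathway genes, the 3 of smallest p and the 3 of highest mean; for isoforms, the 4 of smallest p and genes with 2 forms of at least 20%. Other genes given by library were chosen after their values were seen.

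Control and mutant libraries share the replicate numbers 1 to 3, whose meaning is not stated. Over 13596 genes, deviations from the group mean correlated at 0.26, 0.25 and 0.58 in the same-numbered pairs. Control 1 and mutant 2 correlated at 0.30, control 2 and mutant 1 at 0.19. Only the libraries numbered 3 were thus set apart as a pair, while numbers 1 and 2 could be paired either way. The numbers were still treated as pairs in the block and in the counts over pairs. The settings varied were the pseudocount (0.1 or 1), the filter (none, or an FPKM minimum of 1), the scaling (quantile, upper quartile or TPM), library quality weights, the prior, the replicate block, the threshold (0.1) and each library left out in turn. Leaving out both libraries numbered 3 and limma-voom on rebuilt fragments were chosen after seeing the data.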

Additional observations from a re-analysis of the deposited data

How the results depend on the processing

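No setting called any of the 36 genes or their isoforms. Their median log2 change lay between 0.00 and 0.14, with 0.08 in the main comparison. Of 684 values of single genes in 19 settings, 683 stayed within 1 SD of the replicates, and 20 of the 36 genes changed sign in at least 1 setting. The filter, prior, block and threshold cannot alter a log2 change, and leaving out 1 library cannot move it by 1 SD. The count of 683 was thus largely fixed in advance and is no measure of robustness. The number of all genes called was 3. It was 1 without a filter and 1 with upper quartile scaling, 19 with library quality weights, 22 with the replicate block and 200 without both libraries numbered 3, where 1 other pathway gene (Gk) passed. Leaving out 1 library at a time gave 2 to 68 genes (8 without mutant 1, 68 without mutant 3), while the median of the 36 lay between 0.00 and 0.14. Limma-voom on rebuilt fragments called 0 of 13366 genes, with 535 at an unadjusted p under 0.05 and 0 of the 36 among them. The cause of these shifts was not tested. The block changed no call among the 36 genes. The 95% intervals of Apoa1, Apoa4, Apoc3, Fabp1, Fabp2, Dgat2 and Slc27a2 reach beyond 2-fold, and each of these genes rests on at least 2028 fragments in every library.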

Other observations

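Mogat1, a monoacylglycerol acyltransferase related to Mogat2, lay at 1.34, 13.6 and 1.40 FPKM across the controls against 31.6, 20.3 and 0.575 FPKM across the mutants (limma unadjusted p = 0.476), so libraries of 1 group differed by over 10-fold. Mogat2 itself stayed between 248 and 299.6 FPKM in the same libraries. Cidec, a droplet fusion protein, lay at 133, 111 and 77.1 FPKM across the controls against 119, 146 and 85.7 FPKM across the mutants, lowest in both libraries numbered 3, as Dgat2 was. Acsl1, an acyl-CoA synthetase, lay at 27.8, 32.1 and 16.6 FPKM across the controls against 36.5, 37.7 and 19.8 FPKM across the mutants, again lowest in both libraries numbered 3. These genes were named after their values were seen.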
